A study of Homo sapiens with 9 samples.

Results

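A set of 40 genes of DNA replication and mitosis was followed in HepG2 cells given the secreted protein SPARC. The set comprised 17 S-phase genes, which prepare or carry out DNA replication, and 23 mitotic genes, which act from DNA replication through chromosome segregation to cell division. Each gene was found by its symbol in the platform annotation, and 40 of 40 were measured, among 17687 genes with a symbol on 21448 transcript clusters. HepG2 is an established human liver cancer line that keeps hepatocyte features, and SPARC is a matricellular glycoprotein that binds collagen and modulates how cells contact their matrix. The groups were untreated HepG2, HepG2 with recombinant SPARC at 200 ng/ml and HepG2 with recombinant SPARC at 800 ng/ml, with 3 arrays each and 9 in all. RNA was collected after 24 h, and all groups share the same cell line, so nothing here extends to other liver cells. No label says whether the arrays of a group came from separate cultures, so every p-value refers to array-to-array spread, which could be technical spread alone.

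The cell cycle is driven in its first phase by cyclin D and cyclin E with their kinases, which phosphorylate the retinoblastoma protein and release E2F transcription factors. E2F factors turn on the genes of S phase, among them the MCM helicase, its loader CDC6 and the enzymes that make deoxynucleotides. Mitotic genes are turned on later, by the MuvB complex with B-MYB and FOXM1 acting on CHR elements and by NF-Y acting on CCAAT boxes, so transcripts of both groups are common readouts of how many cells of a culture are cycling. Such RNA comes from the whole culture, and fewer cycling cells cannot be told apart from less of a transcript per cell.

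The promoters of 5 members are shown because each carries at least 1 kind of the motifs below and belongs to a gene described below. Each is given as the 160 bases before the transcription start in RefSeq (GRCh38.p14), 5′ to 3′ on the gene's strand. CDC45, an S-phase gene, had CCAAT matches but no E2F or CHR match. Capitals mark the E2F motif (TTTCCCGC, TTTGGCGC, TTTCGCGC or TTTGCCGC), the CHR motif (TTTGAA or TTCGAA) and CCAAT, each read on both strands. Neighbouring matches can overlap, as in MCM6, where opposite strands of 1 run each hold an E2F match.
MCM6: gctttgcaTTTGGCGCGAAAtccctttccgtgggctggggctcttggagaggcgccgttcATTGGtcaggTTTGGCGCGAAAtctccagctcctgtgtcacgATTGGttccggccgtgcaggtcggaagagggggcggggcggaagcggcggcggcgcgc
E2F1: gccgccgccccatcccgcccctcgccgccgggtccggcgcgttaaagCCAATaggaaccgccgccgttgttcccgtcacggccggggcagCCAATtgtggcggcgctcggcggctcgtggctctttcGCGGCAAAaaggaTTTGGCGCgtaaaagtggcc
CDC45: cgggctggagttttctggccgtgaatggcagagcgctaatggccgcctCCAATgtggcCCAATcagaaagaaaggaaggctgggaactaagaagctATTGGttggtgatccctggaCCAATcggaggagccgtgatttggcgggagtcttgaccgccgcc
CCNB2: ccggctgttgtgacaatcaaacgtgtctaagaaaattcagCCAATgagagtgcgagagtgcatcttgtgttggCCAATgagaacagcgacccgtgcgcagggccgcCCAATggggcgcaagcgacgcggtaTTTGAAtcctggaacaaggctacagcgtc
CDC20: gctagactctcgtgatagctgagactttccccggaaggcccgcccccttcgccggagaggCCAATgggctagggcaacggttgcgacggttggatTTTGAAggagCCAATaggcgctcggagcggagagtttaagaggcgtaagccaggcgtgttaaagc
They lie at chr2:135876444-135876603 (minus strand, MCM6), chr20:33686386-33686545 (minus strand, E2F1), chr22:19479760-19479919 (plus strand, CDC45), chr15:59104986-59105145 (plus strand, CCNB2) and chr1:43358821-43358980 (plus strand, CDC20).

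Promoter sequence was at hand for 13 of 17 S-phase and 18 of 23 mitotic members and was read over 250 bases before the start. The E2F motif was present in 7 of the 13 S-phase promoters (53.8%), in 1 of the 18 mitotic promoters (5.56%) and in 2.79% of 27305 promoters. The CHR motif was present in 2 S-phase promoters (15.4%), 10 mitotic promoters (55.6%) and 14.6% of all promoters. CCAAT was present in 9 S-phase promoters (69.2%), 16 mitotic promoters (88.9%) and 33% of all promoters, and both CHR and CCAAT in 50% of the mitotic against 5.24% of all promoters. E2F matches were thus mostly in the S-phase group and CHR with CCAAT mostly in the mitotic group. A match describes the sequence and is no evidence that a factor bound there in these cells.

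Values are log2 signals as deposited, where a difference of 1 is a doubling, and signals are compared only within a gene. ALB, a liver secretory product, was at 12.14 to 12.46 on every array. The 8 measured of 9 hepatocyte markers had a mean signal of 10.18 on untreated replicate 2 and 10.32 to 10.50 on the other arrays. Such levels do not by themselves establish the labelled cell type. One array, untreated replicate 2, was unlike the rest. Across genes it correlated with them at 0.889 to 0.919, whereas the remaining 8 correlated with each other at 0.979 or more, and its signals had a smaller SD (1.64, against 1.90 to 1.99). At 800 ng/ml, replicates 2 and 3 differed from the rest in the median of neural markers. The 7 measured of 8 lay at a median 1.77 and 1.96 above their mean over 8 arrays (untreated replicate 2 left out), against -0.87 to -0.32 on the remaining arrays. On these 2 arrays 1 and 0 of the 7 were below that mean. GFAP was at 7.88 and 7.75 there against 4.50 to 5.57 elsewhere. SLC1A2 differed less, at 6.88 and 6.97 against 5.07 to 6.78, and MBP did not differ, at 5.77 and 5.93 against 5.65 to 6.02. The part of the neural markers in the 800 ng/ml results below was not tested. Results are therefore given with all 9 arrays and without untreated replicate 2.

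Untreated replicate 2 had the lowest signal of the 9 arrays for 40 of 40 members. The same was true of 7384 of 17687 genes (41.7%), and of 89.3% of the brightest 25% of genes by signal, where 34 of the members lie. Its members lay a median 0.83 below the mean of untreated replicates 1 and 3, from 1.90 below for E2F1 to 0.15 below for MCM2. The median was -0.74 for the S-phase and -0.89 for the mitotic group, and 13 members were 1 or more lower. Over all genes the median difference was -0.089, and in 4 bins of equal size from the dimmest to the brightest it was 0.38, 0.56, -0.51 and -0.82. The 34 members in the brightest bin had a median of -0.78, near the -0.82 of all genes of that bin. The 5 members in the next bin had a median of -0.97, lower than the -0.51 of its genes. CCNE2, the 1 member in the bin below that, was at -1.40, against a median of 0.56 for its genes. Blood markers (6 of 6 measured) were a median 1.21 above their 8-array mean on this array, with 1 of the 6 below it. Fibroblast markers (5 of 6 measured) were a median 1.005 above it, with 0 below. The 5 endothelial markers had a median 0.21 above it, with 1 of the 5 below. Genes of the 2 dimmer bins were also higher on this array, as given above. The part of these values in the low member signals was not tested.

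**Figure D1:**
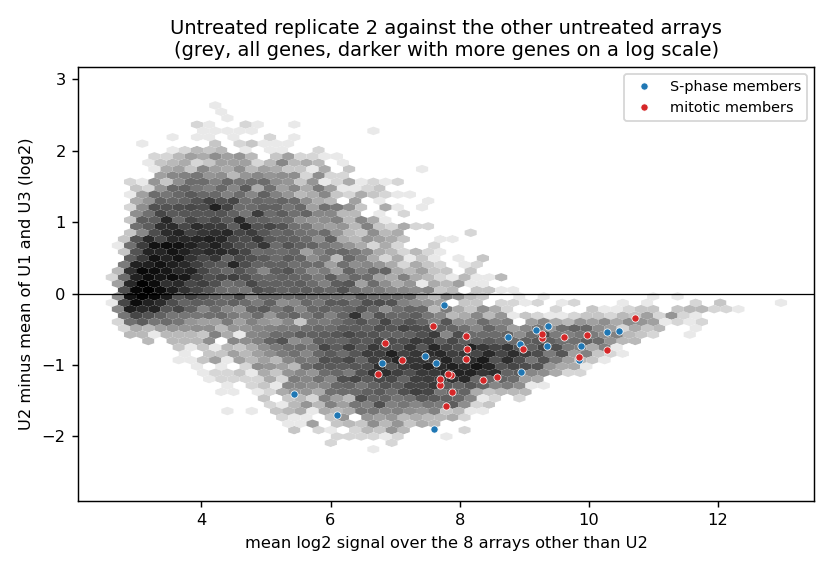
Difference between untreated replicate 2 and the mean of untreated replicates 1 and 3 (log2, y axis) against the signal of each gene (log2, x axis), for all genes and for the 17 S-phase and 23 mitotic members. The members lie below 0. The 34 members among the brightest 25% of genes had a median of -0.78, against -0.82 for all genes there. The 5 members in the next bin by signal (-0.97, against -0.51) and CCNE2 (-1.40, against 0.56) lay lower than the medians of their bins.

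On the other 8 arrays most members varied little. The range from the lowest to the highest array had a median of 0.35 over the 40 members, or 1.28-fold, against 0.58 over all genes. Among the brightest 25% of genes the median range was 0.314 for the members and 0.375 for all genes. In the next bin by signal it was wider for the 5 members, 0.93 against 0.58 for its genes. In the bin below that it was 0.43 for the 1 member and 0.75 for its genes. The range was under 0.5 for 32 of 40 members and smallest for MCM7, a helicase subunit, at 0.16. It was 0.5 or more for MCM6, CDC45, CDK1, BUB1, CENPE, KIF11, TTK and TPX2, with the largest value, 1.10, for the checkpoint kinase TTK. A second array stood lower than the rest. The 200 ng/ml replicate 1 was the lowest of the 8 for 21 of 40 members, against 20.4% of all genes and 36.4% of the brightest 25% of genes. The members' median deviation from the 8-array mean was -0.11 there, against -0.030 to 0.058 on the other 7 arrays and -0.77 on untreated replicate 2.

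**Figure D2:**
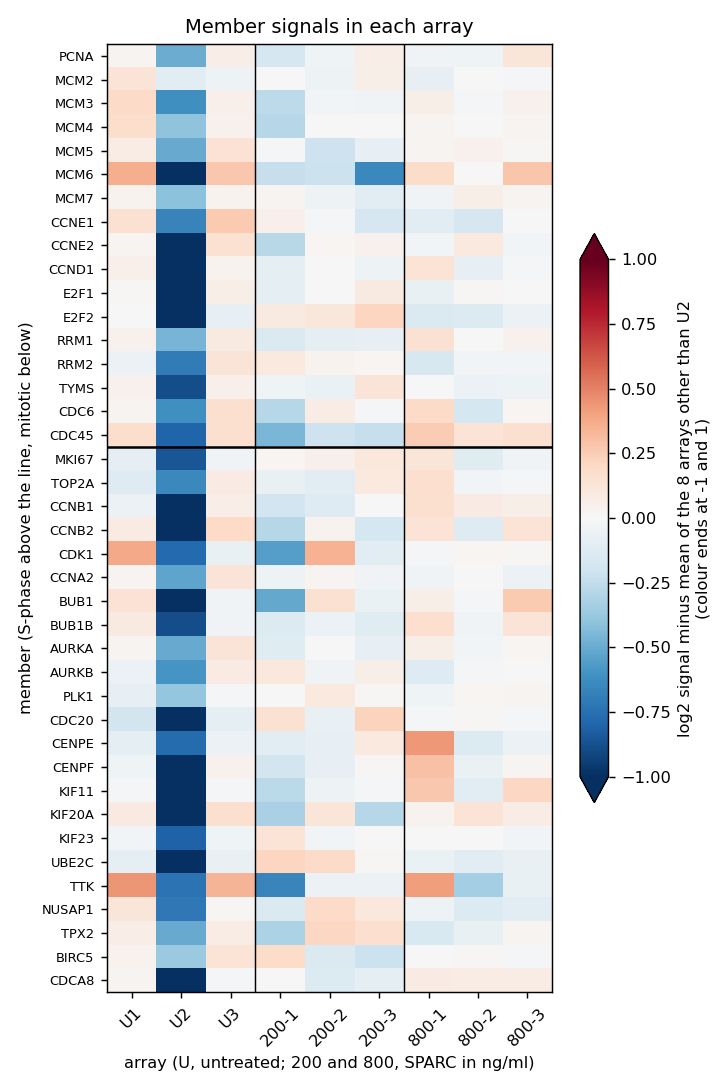
Deviation of each of the 40 members (rows, S-phase above mitotic) on each of the 9 arrays (columns) from its mean over 8 arrays, untreated replicate 2 left out, in log2 units with colours limited to -1 and 1. Untreated replicate 2 is low for 40 of 40 members, while most other cells of the map are near 0.

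No member passed an adjusted p under 0.05 (limma, Benjamini-Hochberg over 17687 genes) in any of the 3 comparisons, with all 9 arrays or without untreated replicate 2. The background was 0.00% of all genes in each of these 6 fits. With all 9 arrays, 0 of 40 members had an unadjusted p under 0.05 in each comparison, against 1.78% of all genes for 200 ng/ml against untreated, 4.17% for 800 ng/ml against untreated and 2.41% for 800 against 200 ng/ml. Quantile normalization of the 9 arrays put 3 of 40 members under that level at 200 ng/ml, against 626 of 17687 genes in the same fit. They were E2F2 (0.046), CDC20 (0.026) and UBE2C (0.025), each higher, with a limma adjusted p of 0.891. Between the doses it put 1 of 40 members there, against 663 of 17687 genes. That member was CDC45 (0.034, higher), with a limma adjusted p of 0.999. A member's 95% interval reached a median of 0.53 to either side of its difference, or 1.45-fold. Without untreated replicate 2 this half-width was 0.27, or 1.21-fold, in both comparisons with untreated cells, and 0.24 between the doses. The intervals were thus wider with untreated replicate 2 than without it. These half-widths are medians of unadjusted intervals and are not the smallest change that an adjusted p could call. A p above the threshold does not show that a member was unchanged.

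Where whole groups are considered, 3 of the 4 median differences from untreated cells changed sign without untreated replicate 2, the exception being the mitotic genes at 800 ng/ml. At 200 ng/ml, the median difference over the S-phase members was 0.067 with all 9 arrays, with 13 of 17 members higher, and -0.16 without that array, with 2 of 17 higher. The S-phase median also turned under quantile normalization of all 9 arrays, to -0.039. Over the mitotic members the median at 200 ng/ml was 0.20, with 22 of 23 higher, and -0.084 without the array, with 7 of 23 higher. The medians over all genes were 0.027 and -0.016. None of these group medians comes with a test, because the members were chosen with earlier results of these data known.

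For the S-phase genes the sign turned at 800 ng/ml too. Their median was 0.15 with all 9 arrays, with 15 of 17 higher, -0.0051 with quantile normalization and -0.075 without untreated replicate 2, with 2 of 17 higher. The mitotic median was 0.32 with 22 of 23 higher, and 0.024 with 12 of 23 higher without the array. All genes had medians of 0.044 and -0.0060. Between the doses, a comparison in which the untreated arrays play no part in the difference, 800 ng/ml stood above 200 ng/ml by a median of 0.064 in the S-phase group, with 11 of 17 higher, and by 0.087 in the mitotic group, with 14 of 23 higher, against 0.013 over all genes. Leaving out the 200 ng/ml replicate 1 as well brought the S-phase median between the doses to 0.0025 and the mitotic one to 0.054.

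**Figure D3:**
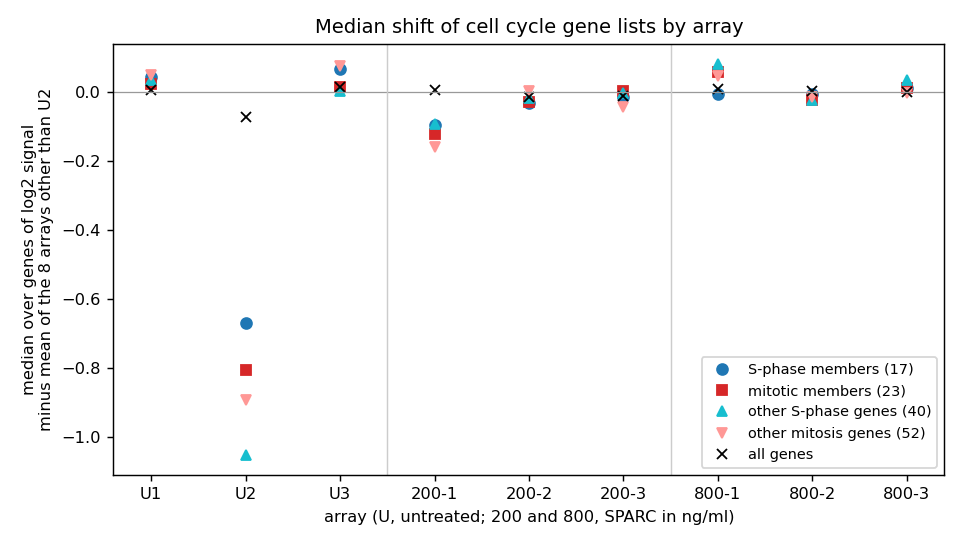
Median deviation (log2, y axis) of the S-phase members, the mitotic members, the further replication genes, the further mitosis genes and all genes on each of the 9 arrays (x axis), counted from each gene's mean over 8 arrays with untreated replicate 2 left out. Both member groups lie near 0 on 7 arrays, slightly low on 200 ng/ml replicate 1 (-0.095 and -0.12) and at -0.67 and -0.81 on untreated replicate 2.

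Groups that did not overlap were counted against the same share over all genes. With all 9 arrays, E2F2, MKI67, PLK1, CDC20 and UBE2C were higher on every 200 ng/ml array than on every untreated array, 5 of 40 against a background of 3.92%, and 0 were lower against 3.06%. In the 800 ng/ml group CDC20 and CDCA8 were higher than every untreated array, 2 of 40 against 6.08%, and 0 were lower against 5.14%. Since untreated replicate 2 was the lowest array for every member, a member could not be lower without overlap in these counts.

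Without untreated replicate 2, the 200 ng/ml arrays were all below both remaining untreated arrays for 14 of 40 members, against 17.8% of all genes, and all above them for 5, against 13.8%. The lower members were 9 of 17 in the S-phase group (MCM3, MCM4, MCM5, MCM6, MCM7, CCNE1, CCND1, RRM1 and CDC45) and 5 of 23 in the mitotic group (CCNB2, CCNA2, BUB1B, AURKA and TTK). With 800 ng/ml, 9 were lower, against 11.8%, and 2 higher, against 10.5%. The lower ones were MCM4, MCM5, CCNE1, E2F1 and TYMS among the S-phase and CCNA2, NUSAP1, TPX2 and BIRC5 among the mitotic genes. Between the doses 9 members were higher at 800 ng/ml, against 12.1%, and 3 lower, against 9.72%. The higher ones were MCM3, MCM4, MCM5, MCM6, RRM1, CDC45, CCNB1, BUB1B and CDCA8, and the lower ones E2F2, RRM2 and UBE2C. The members higher than untreated cells were those found with all 9 arrays, and these counts carry no test.

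Among the genes that build the replicative helicase, MCM6 differed most between the doses and, without untreated replicate 2, from untreated cells at 200 ng/ml. MCM6 is 1 of the 6 subunits of the MCM ring that is loaded on origins and unwinds DNA. Its signals were 6.46, 4.71 and 6.36 in untreated cells, 5.86, 5.88 and 5.45 at 200 ng/ml and 6.28, 6.09 and 6.37 at 800 ng/ml. The 200 ng/ml arrays lay below every other array apart from untreated replicate 2, and the 800 ng/ml arrays reached up to the remaining untreated ones. With all 9 arrays the difference at 200 ng/ml was -0.11 ± 0.39 (SE), with an adjusted p of 0.976 (limma). Without untreated replicate 2 it was -0.68 ± 0.16, a ratio of 0.62, with a 95% interval of -1.04 to -0.32, an unadjusted p of 0.0019 and an adjusted p of 0.309. Between the doses MCM6 was 0.51 higher at 800 ng/ml, with SE 0.39 and adjusted p 0.999 from all 9 arrays, and SE 0.14 and adjusted p 0.203 without untreated replicate 2 (limma). With 200 ng/ml replicate 1 left out as well, MCM6 differed from untreated by -0.75 at 200 ng/ml, and 800 ng/ml was 0.58 above 200 ng/ml. Quantile normalization of all 9 arrays gave 0.034 at 200 ng/ml, against -0.11 as deposited.

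CDC45, which joins the MCM ring and GINS to form the active helicase, was also lowest at 200 ng/ml apart from untreated replicate 2. Its signals were 7.82, 6.84 and 7.80 in untreated cells, 7.18, 7.43 and 7.41 at 200 ng/ml and 7.89, 7.77 and 7.80 at 800 ng/ml. The 800 ng/ml arrays matched untreated replicates 1 and 3, and the 200 ng/ml arrays lay below all 5 of these without overlap. The difference at 200 ng/ml was -0.14 ± 0.26 with all 9 arrays and -0.47 ± 0.12 without untreated replicate 2 (unadjusted p 0.0037, adjusted p 0.310, limma). Between the doses it was 0.48 ± 0.26 with all 9 arrays (unadjusted p 0.088, adjusted p 0.999, limma), and its SE was 0.11 and its adjusted p 0.185 without that array. The 800 ng/ml arrays differed from untreated by 0.34 with all 9 arrays and by 0.014 without replicate 2.

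The other helicase subunits spread less. Over the 8 arrays MCM2, MCM3, MCM4, MCM5 and MCM7 had ranges below 0.5, and none had an unadjusted p under 0.05 without untreated replicate 2. CDC6, the loader of the ring, had means of 8.80 ± 0.41, 8.87 ± 0.19 and 8.95 ± 0.19 (SD, n = 3) in untreated, 200 and 800 ng/ml cells, and the groups overlapped. PCNA, the clamp that holds the replicative polymerases, was 10.32, 9.79 and 10.35 in untreated cells, 10.12, 10.25 and 10.36 at 200 ng/ml and 10.26, 10.25 and 10.41 at 800 ng/ml. All PCNA groups overlapped, and its differences from untreated were 0.085 ± 0.20 and 0.15 ± 0.20 (SE).

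Among the cyclins that open the cycle, CCNE1 (cyclin E1) was 7.62, 6.80 and 7.73 in untreated cells, 7.51, 7.45 and 7.30 at 200 ng/ml and 7.35, 7.29 and 7.47 at 800 ng/ml. All 6 treated arrays lay below untreated replicates 1 and 3 and above replicate 2. With 800 ng/ml the difference was -0.0085 ± 0.24 with all 9 arrays and -0.30 ± 0.12 without replicate 2 (unadjusted p 0.034, adjusted p 0.912, limma). CCND1 (cyclin D1) was 8.997, 7.89 and 8.99 in untreated cells, 8.86, 8.95 and 8.90 at 200 ng/ml and 9.08, 8.87 and 8.94 at 800 ng/ml. Its differences from untreated were 0.28 ± 0.28 and 0.34 ± 0.28 with all 9 arrays and -0.089 ± 0.11 and -0.029 ± 0.11 without replicate 2. The sign of CCND1 thus turned with 1 array, and no call was made either way. CCNE2 (cyclin E2) had means of 5.06 ± 0.81, 5.36 ± 0.18 and 5.45 ± 0.07 (SD, n = 3).

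E2F2, an activating E2F factor, was 6.80, 5.79 and 6.72 in untreated cells, 6.89, 6.91 and 7.01 at 200 ng/ml and 6.65, 6.66 and 6.74 at 800 ng/ml. The 200 ng/ml arrays were the highest 3 of the 9. Against untreated cells they were 0.50 ± 0.25 higher with all 9 arrays and 0.18 ± 0.11 higher without replicate 2 (adjusted p 0.966 and 0.554, limma). The 800 ng/ml arrays were 0.26 below 200 ng/ml, opposite to MCM6 and CDC45, with an unadjusted p of 0.335 with all 9 arrays and 0.027 without replicate 2 (adjusted p 0.999 and 0.277, limma). E2F1, which is itself an E2F target, was 7.61, 5.73 and 7.66 in untreated cells, 7.50, 7.60 and 7.69 at 200 ng/ml and 7.52, 7.60 and 7.59 at 800 ng/ml. Its 8 other arrays lay within a narrow band. The differences from untreated were 0.60 ± 0.41 and 0.57 ± 0.41 with all 9 arrays, and -0.035 ± 0.11 and -0.061 ± 0.11 without replicate 2.

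The enzymes that supply deoxynucleotides varied little. RRM2, the regulated subunit of ribonucleotide reductase, was 9.81, 9.17 and 10.002 in untreated cells, 9.97, 9.90 and 9.89 at 200 ng/ml and 9.71, 9.84 and 9.84 at 800 ng/ml. Its 800 ng/ml arrays lay below its 200 ng/ml arrays, by 0.12 ± 0.22 with all 9 arrays and with SE 0.10 without replicate 2. RRM1, the large subunit, had means of 10.36 ± 0.31, 10.36 ± 0.03 and 10.54 ± 0.08 (SD, n = 3), and its 800 ng/ml arrays were above the 200 ng/ml arrays without overlap. TYMS, thymidylate synthase, had means of 9.59 ± 0.54, 9.86 ± 0.11 and 9.82 ± 0.03.

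**Figure D4:**
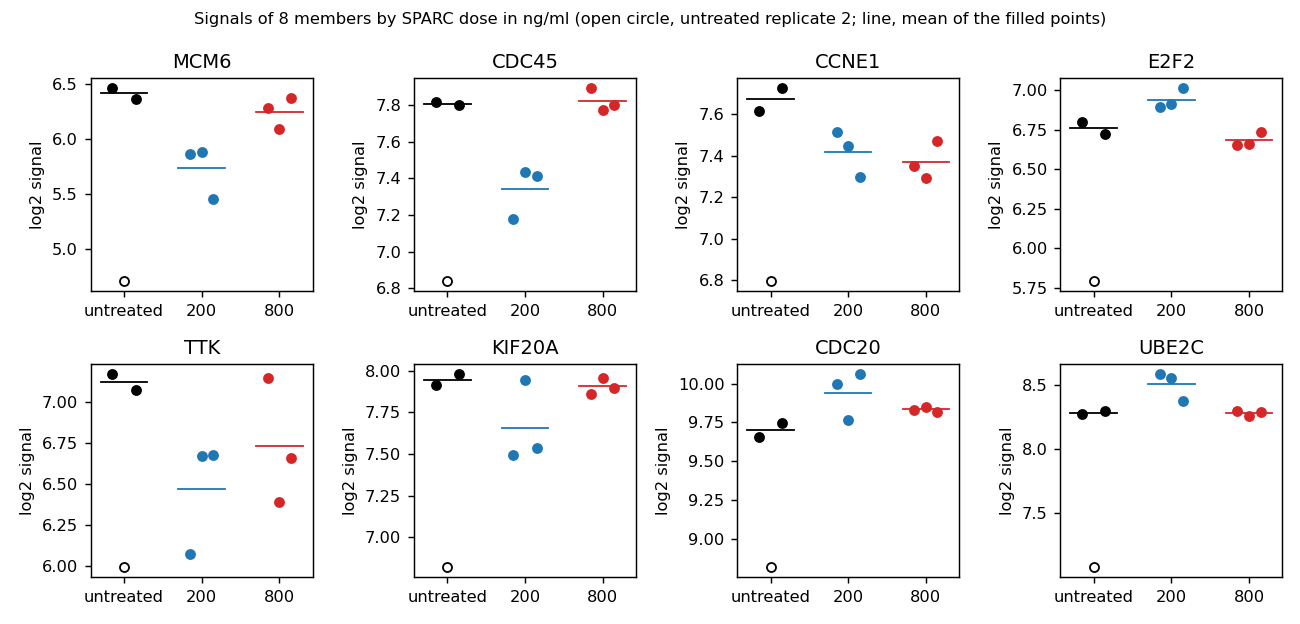
Signals (log2, y axis) of MCM6, CDC45, CCNE1, E2F2, TTK, KIF20A, CDC20 and UBE2C on every array of the 3 groups (x axis). The open point is untreated replicate 2 and each line is the mean of the filled points. MCM6 and CDC45 are lowest at 200 ng/ml among the filled points, whereas E2F2 and UBE2C are highest there.

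The engine of mitotic entry is CDK1 with cyclin B. CDK1 was 7.49, 6.34 and 7.04 in untreated cells, 6.57, 7.46 and 6.998 at 200 ng/ml and 7.10, 7.13 and 7.13 at 800 ng/ml. Its 200 ng/ml arrays were further apart than its 800 ng/ml arrays and lay on both sides of them, and its difference there was 0.052 ± 0.30 with all 9 arrays and -0.26 ± 0.24 without replicate 2. CCNB1 (cyclin B1) was 8.53, 7.42 and 8.65 in untreated cells, 8.39, 8.45 and 8.59 at 200 ng/ml and 8.75, 8.67 and 8.64 at 800 ng/ml. Its 800 ng/ml arrays were above the 200 ng/ml arrays, by 0.21 with SE 0.29 from all 9 arrays and 0.10 without replicate 2 (unadjusted p 0.48 and 0.074, limma). CCNB2 (cyclin B2), whose promoter is shown above, was 7.97, 6.65 and 8.08 in untreated cells, 7.60, 7.92 and 7.71 at 200 ng/ml and 8.02, 7.76 and 8.02 at 800 ng/ml. Without replicate 2 it was 0.28 ± 0.14 lower at 200 ng/ml, with an unadjusted p of 0.075 and an adjusted p of 0.481 (limma).

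Kinases of the spindle checkpoint delay anaphase until chromosomes are attached, and TTK, also known as MPS1, had the widest range of the members on the 8 arrays. Its signals were 7.17, 5.99 and 7.07 in untreated cells, 6.07, 6.67 and 6.68 at 200 ng/ml and 7.15, 6.39 and 6.66 at 800 ng/ml. Its lowest value outside untreated replicate 2 was on 200 ng/ml replicate 1. The difference at 200 ng/ml was -0.27 ± 0.33 with all 9 arrays and -0.65 ± 0.24 without replicate 2 (unadjusted p 0.025, adjusted p 0.386, limma), and it was -0.45 (unadjusted p 0.080, limma) when 200 ng/ml replicate 1 was left out too. BUB1 was 8.02, 6.78 and 7.84 in untreated cells, 7.36, 8.03 and 7.81 at 200 ng/ml and 7.93, 7.85 and 8.13 at 800 ng/ml, so its low value at 200 ng/ml also came from replicate 1. PLK1, which drives centrosome maturation and many later steps, had means of 10.55 ± 0.20, 10.75 ± 0.05 and 10.71 ± 0.04 (SD, n = 3). AURKA and AURKB, the Aurora kinases of spindle poles and of the chromosomal passenger complex, had differences from untreated at 200 ng/ml of 0.046 ± 0.20 and 0.23 ± 0.21 with all 9 arrays, and of -0.15 ± 0.11 and 0.033 ± 0.11 without replicate 2 (SE).

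KIF11, the kinesin that pushes spindle poles apart, was 7.77, 6.21 and 7.78 in untreated cells, 7.53, 7.74 and 7.78 at 200 ng/ml and 8.06, 7.69 and 8.004 at 800 ng/ml. Its 800 ng/ml difference from untreated was 0.67 ± 0.36 with all 9 arrays, the largest among the mitotic members in that comparison, and 0.14 ± 0.14 without replicate 2. KIF20A, a kinesin of the central spindle, was 7.91, 6.82 and 7.98 in untreated cells, 7.50, 7.95 and 7.53 at 200 ng/ml and 7.86, 7.96 and 7.90 at 800 ng/ml. It was low on 2 of the 3 arrays at 200 ng/ml, and the doses differed by 0.25 with SE 0.29 from all 9 arrays and 0.13 without replicate 2. NUSAP1, which bundles spindle microtubules, was 9.10, 8.26 and 8.99 in untreated cells, 8.83, 9.17 and 9.08 at 200 ng/ml and 8.92, 8.84 and 8.87 at 800 ng/ml. Its 800 ng/ml arrays lay below untreated replicates 1 and 3, by 0.17 ± 0.13 (SE).

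The exit from mitosis runs through the anaphase-promoting complex, with CDC20 as its activator and UBE2C as its ubiquitin-conjugating enzyme. CDC20 was 9.66, 8.82 and 9.75 in untreated cells, 9.99, 9.77 and 10.06 at 200 ng/ml and 9.83, 9.85 and 9.82 at 800 ng/ml. Every SPARC array was above every untreated array. The difference at 200 ng/ml was 0.53 ± 0.25 with all 9 arrays (unadjusted p 0.052, adjusted p 0.966, limma) and 0.24 ± 0.12 without replicate 2 (adjusted p 0.493). UBE2C was 8.28, 7.08 and 8.30 in untreated cells, 8.59, 8.56 and 8.38 at 200 ng/ml and 8.30, 8.26 and 8.29 at 800 ng/ml. Its 200 ng/ml arrays were above both other groups, by 0.62 ± 0.29 over untreated cells with all 9 arrays and by 0.22 ± 0.11 without replicate 2. MKI67, the proliferation antigen Ki-67, was 10.18, 9.42 and 10.25 in untreated cells, 10.30, 10.33 and 10.39 at 200 ng/ml and 10.40, 10.16 and 10.24 at 800 ng/ml. Apart from untreated replicate 2, MKI67 had a range of 0.24 over the arrays, and TOP2A, the topoisomerase that untangles sister chromatids, had means of 9.05 ± 0.38, 9.25 ± 0.11 and 9.32 ± 0.11 (SD, n = 3).

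**Figure D5:**
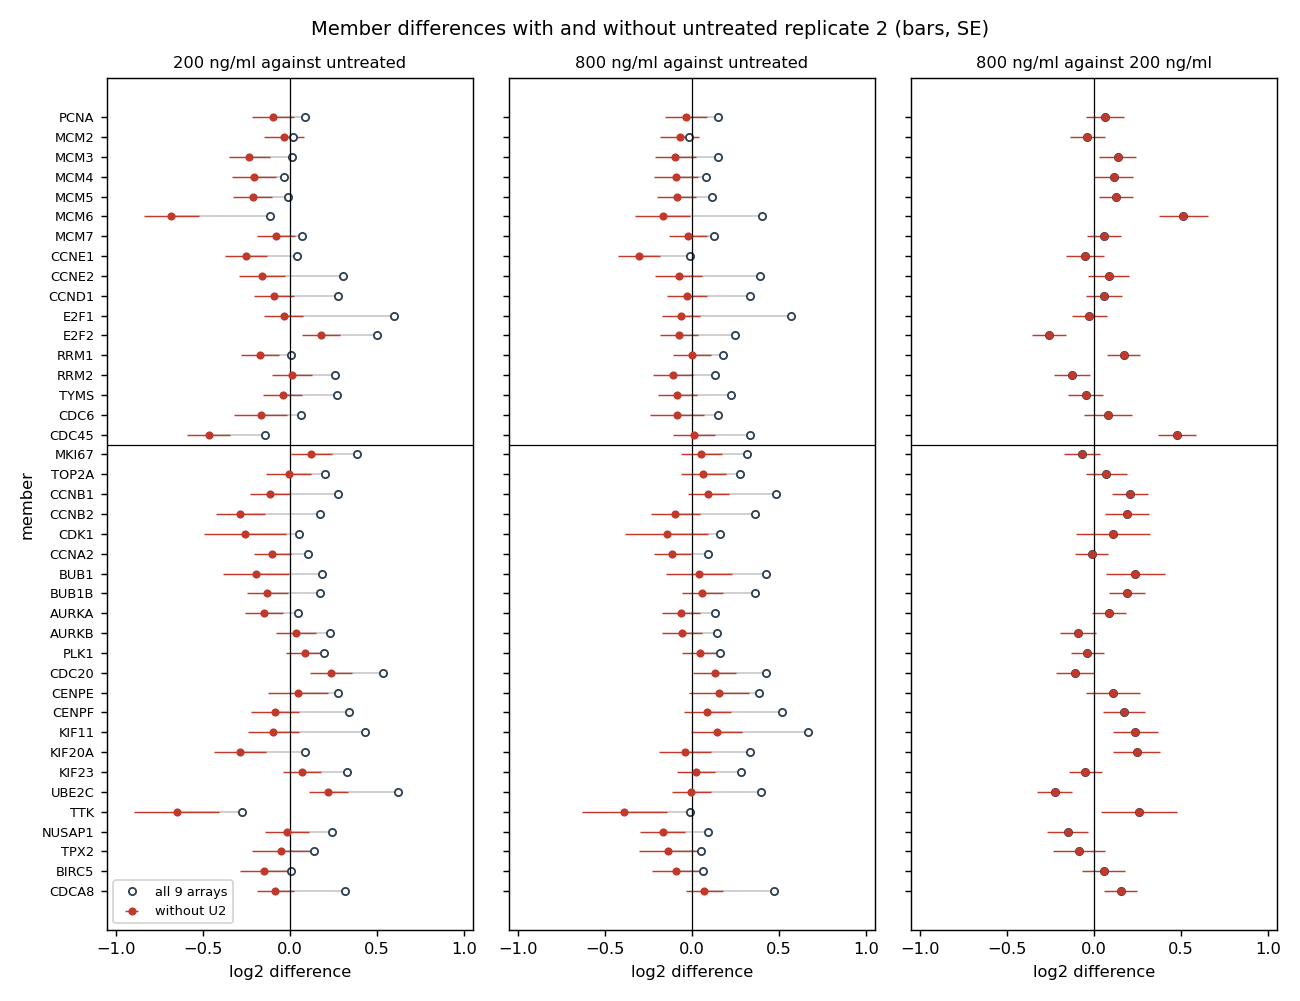
Log2 difference of each of the 40 members in the 3 comparisons, with all 9 arrays (open points) and without untreated replicate 2 (filled points, bars are SE). In both comparisons with untreated cells the filled points lie to the left of the open ones, and 0 members pass an adjusted p under 0.05.

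Without untreated replicate 2, the members' unadjusted p-values under 0.05 were few and near their share over all genes. At 200 ng/ml there were 3 such members (MCM6, CDC45 and TTK), each lower, against 6.03% of all genes lower at this level. For 800 ng/ml CCNE1 was the only one, lower, against 2.83%. Between the doses MCM6 and CDC45 were higher, against 7.68%, and E2F2 lower, against 7.58%. Weighting the arrays by their spread gave a different count. With array weights in limma, MCM6 (-0.81, adjusted p 0.0075), CDC45 (-0.43, adjusted p 0.016) and TTK (-0.58, adjusted p 0.029) passed at 200 ng/ml, 3 of 40 members against 1971 genes, or 11.1% of all. Those weights were 10.7 for untreated replicate 1 and 0.0399 for replicate 2, so replicate 1 carried most of the weight of its group.

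The medians of wider cell-cycle genes were also smaller without untreated replicate 2. Of a list of further replication genes, 40 of 42 were measured, with medians of 0.27 at 200 ng/ml and 0.36 at 800 ng/ml with all 9 arrays, and -0.078 and -0.010 without untreated replicate 2. For 52 of 52 further mitosis genes the medians were 0.18 and 0.25, and -0.15 and -0.054. Genes that brake the cycle, 15 of 18 measured, had medians of 0.13 and 0.22, and -0.088 and 0.0095, and the 8 other G1 cyclins and kinases 0.28 and 0.32, and -0.012 and 0.017. None of these genes passed an adjusted p under 0.05 in either setting. Genes that drive and genes that brake the cycle thus had medians of the same sign with all 9 arrays.

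By the rule of smallest p, the further replication genes named were POLD1, POLA1 and UNG. POLA1, the catalytic subunit of the polymerase that makes primers, was 0.59 ± 0.26 higher at 800 ng/ml than in untreated cells (unadjusted p 0.044, adjusted p 0.659, limma), and 0.26 ± 0.12 higher without replicate 2. POLD1, the catalytic subunit of polymerase delta, was 0.57 ± 0.25 lower (unadjusted p 0.042), and 0.28 ± 0.14 lower without replicate 2. Its signal was high on untreated replicate 2, at 6.84 against 5.99 and 5.99 on replicates 1 and 3. UNG, which removes uracil from DNA, was 0.61 ± 0.28 higher at 200 ng/ml, and 0.24 ± 0.14 higher without replicate 2. Of the mitosis genes, SPC25, a subunit of the kinetochore NDC80 complex, was 6.82, 5.86 and 6.71 in untreated cells, 6.25, 6.06 and 5.90 at 200 ng/ml and 6.65, 6.56 and 6.68 at 800 ng/ml. It was 0.56 ± 0.25 higher at 800 than at 200 ng/ml (unadjusted p 0.046, adjusted p 0.999, limma), and without replicate 2 its unadjusted p was 0.0009 and its adjusted p 0.167. Leaving out untreated replicate 2, the 200 ng/ml arrays had the lowest SPC25 signals, as they did for MCM6 and CDC45. Each of these genes was named for a small p in these same data, so their likeness is no separate result. Between the doses, 11 of the 52 further mitosis genes were higher at 800 ng/ml without overlap, against 12.1% of all genes, and 4 were lower, against 9.72%. DLGAP5 and NCAPG, a spindle and a condensin protein, were 0.75 ± 0.36 and 0.57 ± 0.29 higher at 800 ng/ml with all 9 arrays, and 0.23 ± 0.16 and 0.18 ± 0.13 without replicate 2. CDKN1B, RB1 and E2F5 among the brakes and CDK4, CDK2 and E2F3 among the G1 genes were named by the same rule, with differences at 800 ng/ml of 0.66, 0.39, 0.36, 0.38, 0.62 and 0.52 with all 9 arrays, and of 0.15, 0.068, 0.11, 0.10, 0.0029 and 0.032 without replicate 2.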

How the data were processed

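RNA from HepG2 cells was hybridised to 1-colour arrays. The authors deposited a table of log2 signals, 1 for each transcript cluster on each array, whose scale no label states and was read from their range. The submitters' processing notes name R 3.0, while normalization, background correction and filters were not given in the sources used. The extraction protocol in the labels mentions the untreated cells and 800 ng/ml, while the sample labels give both doses. There are no detection calls, and precision is limited by how many arrays there are.

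Symbols came from the platform annotation, for 17709 of 21448 clusters, with 3739 unnamed. The cluster with the highest mean was kept per gene, leaving 17687 genes. Members had 1 cluster each. One limma model (3.58.1, R 4.3.3; lmFit, eBayes) held all 3 groups, and the procedure was tested on simulated data. The members and lists were chosen with earlier results of these data known.

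Named genes were, per comparison and member group, the 3 of smallest p with all 9 arrays and without untreated replicate 2, plus MKI67, PCNA, CCND1 and CDK1, the 3 of smallest p in each further list, and ALB, AFP and GFAP among markers. SLC1A2 and MBP were added to show the spread among the neural markers. Other members are given by range or mean. AFP was 8.16 on untreated replicate 2 and 8.93 to 9.19 elsewhere. Alternatives covered normalization, filters, the prior, array weights, a replicate block and each array left out.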

Additional observations from a re-analysis of the deposited data

Results flagged for a closer look

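CDC45 was the 1 member whose arrays all moved one way at one dose and the other way at the other, set against the untreated mean of all 3 arrays. The mean difference from untreated cells was -0.143 at 200 ng/ml and 0.337 at 800 ng/ml (log2). Each of the 3 arrays at 200 ng/ml lay below the untreated mean and each of the 3 at 800 ng/ml lay above it. The doses themselves differed by 0.48 ± 0.26 (SE), with an unadjusted p of 0.088 and an adjusted p of 0.999 in limma's fit of all 9 arrays. The untreated mean includes untreated replicate 2, at 6.84 against 7.82 and 7.80, and without it the difference at 800 ng/ml was 0.014.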

How the results depend on the processing

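Members called stayed at 0 under every alternative except array weights, where 3 were called at 200 ng/ml and 0 in the other comparisons. Array weights called 1971, 732 and 6 genes at 200 ng/ml, at 800 ng/ml and between the doses. Leaving out 800 ng/ml replicate 1 called 12 genes at 800 ng/ml and 15 between the doses, and 0 members. Quantile normalization gave S-phase medians of -0.039 and -0.0051 against untreated at 200 and 800 ng/ml and 0.029 between the doses, and mitotic medians of 0.10 and 0.17. Median centring gave S-phase medians of 0.20 at 800 ng/ml and 0.11 between the doses, and a mitotic median of 0.37 at 800 ng/ml. Array weights gave S-phase medians of -0.096, -0.048 and 0.029, and mitotic medians of -0.017 and 0.0084. Quantile normalization after leaving out untreated replicate 2 gave S-phase medians of -0.094, -0.069 and 0.028, and mitotic medians of -0.012 and 0.043. With untreated replicate 2 and 200 ng/ml replicate 1 both left out, a choice made after seeing the data, S-phase medians were -0.065, -0.075 and 0.0025, and mitotic medians -0.016 and 0.024. Leaving out 1 array at a time, the S-phase median ran from -0.16 to 0.18 at 200 ng/ml, from -0.075 to 0.30 at 800 ng/ml and from 0.0025 to 0.11 between the doses, and the mitotic median from -0.084 to 0.37, from 0.024 to 0.47 and from 0.054 to 0.11. The negative ends came without untreated replicate 2. Without it, 26 of 40 members changed sign at 200 ng/ml, 23 at 800 ng/ml and 0 between the doses. The cause was not tested.

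No clear pairing of arrays by replicate number was seen. Over 9 same-numbered pairs the correlation of deviations from the group means was -0.253 to 0.113, and 1 of 9 was over 0.1. The untreated mean includes untreated replicate 2, which shifts the deviations of all untreated arrays, so pairs with an untreated array cannot decide this. Pairs of a 200 with an 800 ng/ml array had correlations of -0.046 to 0.034. With the replicate block, 0 members were called. At 200 ng/ml 1 of 40 members, CDC20, had an unadjusted p under 0.05 (0.049, limma), against 265 of 17687 genes. The S-phase medians of 0.067, 0.15 and 0.064 and mitotic medians of 0.20, 0.32 and 0.087 were those without the block. The block after leaving out untreated replicate 2 gave S-phase medians of -0.16 and -0.064 and mitotic medians of -0.070 and -0.00060 against untreated. An offset before taking logarithms was not run, since the values were already on a log scale.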
